A study of Homo sapiens with 21 samples.

Results

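The BCL2 family decides, at the outer membrane of the mitochondrion, whether a cell commits to apoptosis. Pro-survival members hold back the effectors BAX and BAK1, which otherwise form pores that release cytochrome c, and BH3-only members start death by binding the pro-survival proteins, the effectors or both. Myeloid leukemia cells are known to lean on BCL2 and MCL1 in particular.

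The 10 genes described here are a list of symbols, fixed by name and chosen with earlier results of these data known. They were matched by Ensembl identifier among the 58174 identifiers of each library. They comprised 4 pro-survival genes (BCL2, BCL2L1, MCL1 and BCL2A1), 2 effectors (BAX and BAK1) and 4 BH3-only genes (BCL2L11, BBC3, PMAIP1 and BIK). BIK was read in 2 of 21 libraries, with 1 count in each, and the other 9 genes passed the filter on low counts in every fit.

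The cells were OCI-AML5, a line grown from a human acute myeloid leukemia, and UM171 is a small molecule used to expand blood stem cells in culture. Poly(A) RNA was sequenced in 7 groups of 3 libraries, of which 5 held unedited cells, 1 in the vehicle DMSO and 4 exposed to 500 nM UM171 for 6, 24, 48 or 72 h, and 2 held sgEPCR cells, 1 in DMSO and 1 exposed to 500 nM UM171 for 24 h. The sgEPCR cells carried guide RNA against PROCR, the gene of the endothelial protein C receptor EPCR, and are labelled both as an EPCR null clone and as a knockdown, with no statement of which guide each library carries. The study's text speaks of independent sgEPCR clones, and the labels do not say whether the 3 libraries of a group are separate clones. The DMSO libraries of the unedited cells are labelled 72 h and those of the sgEPCR cells 24 h, so in DMSO the genotype and the labelled time cannot be told apart. The only unedited DMSO group being that labelled 72 h, UM171 and the labelled time cannot be told apart at 6, 24 and 48 h either, and the interaction described later also carries the difference of DMSO labels. The study's text gives another dose than the labels. The labels name no guide for the cells called unedited here, whereas the study's legends name sgAAVS1 cells as the wild type of its sgEPCR comparison. Whether these libraries carry that guide is not stated. The unedited libraries served here as the controls of the sgEPCR cells, and the DMSO libraries entered every time point, so these comparisons share samples. The labels do not say whether libraries of a group came from separate cultures, and the p-values therefore measure the spread between libraries.

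Each library held between 24286668 and 51540166 expected counts. PROCR was still read in sgEPCR cells, at 3.59 ± 1.15 TPM (a level per transcript length and library total; SD, n = 3) in DMSO against 3.68 ± 0.534 in unedited cells, and at 7.19 ± 2.58 TPM against 48.5 ± 0.0115 in UM171 for 24 h. Of the 10 myeloid markers checked, LYZ was the highest in each group, and their summed level was 1534 to 1626 TPM in DMSO, 2269 to 2468 TPM at 72 h, 763 to 1318 TPM in sgEPCR DMSO and 1290 to 1836 TPM in sgEPCR UM171. LYZ alone went from a mean of 717 TPM in DMSO to 1693 at 72 h, while the other 9 markers summed to 860 to 885 TPM and 654 to 714 TPM. SPI1 went from a mean of 417 to 216 TPM, CEBPA from 88.9 to 47.6 and CD33 from 178 to 156, and of the 9 markers tested 4 rose and 4 fell at 72 h. The 14 markers of other cell types summed to 7.99 to 57.6 TPM over all groups, 9.97 to 10.95 in DMSO and 55.1 to 57.6 at 48 h, with CD79A the highest in all groups but the sgEPCR cells in UM171. ALAS2 and MS4A1 were at 0 in every library, and the part of these markers in the results was not tested. The first sgEPCR DMSO library and the second sgEPCR UM171 library placed 35.9% and 32.2% of their counts on the 37 mitochondrially encoded genes, against 7.73% to 13.5% in the other 19, and the sgEPCR results that rest on these 2 are given with and without them.

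Promoter sequences of 8 of the 10 genes were found in RefSeq (GRCh38.p14), and those of BCL2A1 and PMAIP1 are shown because these genes rose at both 48 and 72 h. Each run holds the 250 bases before the annotated start, 5′ to 3′ on the gene's strand, and capitals mark a TATA box (TATAAA) in BCL2A1 and GC boxes (GGGCGG, or CCGCCC on the other strand) in PMAIP1. The BCL2A1 window is chr15:79971197-79971446 on the minus strand and the PMAIP1 window is chr18:59899746-59899995 on the plus strand.
BCL2A1: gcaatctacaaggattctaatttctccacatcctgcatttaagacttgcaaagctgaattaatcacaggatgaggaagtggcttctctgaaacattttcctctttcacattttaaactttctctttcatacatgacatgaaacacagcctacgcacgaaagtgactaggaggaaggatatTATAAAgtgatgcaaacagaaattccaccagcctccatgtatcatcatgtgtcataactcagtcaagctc
PMAIP1: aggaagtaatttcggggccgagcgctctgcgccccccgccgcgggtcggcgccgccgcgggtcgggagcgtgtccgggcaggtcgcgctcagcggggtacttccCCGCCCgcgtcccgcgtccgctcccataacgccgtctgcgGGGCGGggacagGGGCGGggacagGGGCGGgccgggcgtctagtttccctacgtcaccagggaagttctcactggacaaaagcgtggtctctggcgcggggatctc

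The 2 windows differed in base composition, with 38.8% GC in BCL2A1 and 72.8% in PMAIP1. The TATA box of BCL2A1 began 70 bases before the start, and TATAAA on either strand was present in 10.7% of 35116 RefSeq windows of the same length. The only other match among the 8 genes was in 1 of the 2 BCL2L1 windows, which held it at 208 and 125 bases before the start. The 4 GC boxes of PMAIP1 began 146, 106, 94 and 82 bases before the start, and 42.6% of windows held this motif. GC boxes were also present in the windows of BCL2L11 (3 matches), BAK1 (2 matches) and BAX (1 match). A FOXO site (GTAAACA, in 2.98% of windows) was present in that of BCL2L11, an AP-1 site (TGANTCA, 6.57%) in that of BBC3 and an E-box (CACGTG, 6.34%) in those of BBC3 and BAX. The NF-kB consensus (5.21% of windows) matched in none of the 8 genes, the p53 half-site (5.57%) matched in BAK1 only, and the windows searched are short. These matches are letters in a window and were not tested as binding sites.

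In GRCh38, with GENCODE version 44, BCL2 spans chr18:63123346-63320128 and PMAIP1 chr18:59899996-59904305, BCL2L1 chr20:31664452-31723989, MCL1 chr1:150560895-150579738 and BCL2A1 chr15:79960892-79971196. BAX spans chr19:48954815-48961798, BBC3 chr19:47220822-47232766, BAK1 chr6:33572547-33580293, BCL2L11 chr2:111119378-111168444 and BIK chr22:43110750-43129712. BAX, BCL2L11, PMAIP1 and BIK lie on the plus strand and the others on the minus strand.

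In DMSO the most abundant members per transcript were BAX, at 200 ± 13.9 TPM (SD, n = 3), and MCL1, at 181 ± 9.45 TPM. They were followed by BCL2 (50.2 ± 1.70), BCL2L1 (42.6 ± 2.52), PMAIP1 (39.2 ± 6.63), BCL2L11 (17.1 ± 1.89), BAK1 (15.7 ± 0.459), BBC3 (11.6 ± 0.150) and BCL2A1 (3.59 ± 0.307), all in TPM. MCL1 thus made up 65.2% ± 0.593 of the summed TPM of the pro-survival genes, BCL2 18.1% ± 0.641, BCL2L1 15.4% ± 0.215 and BCL2A1 1.30% ± 0.169.

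**Figure D1:**
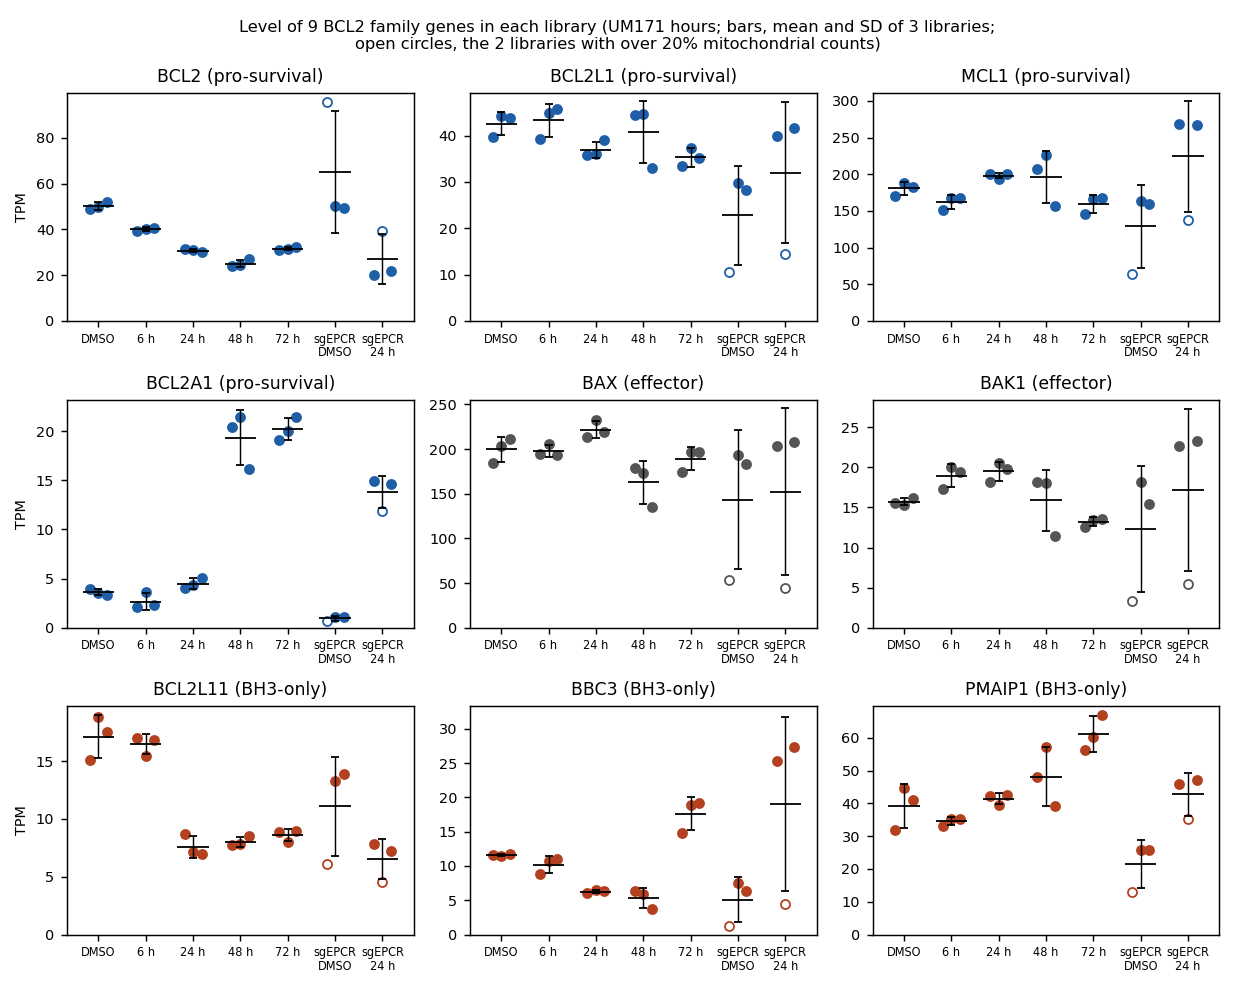
TPM of 9 members (vertical axes from 0, a scale for each gene) in each of the 21 libraries, with black bars for the mean and SD of 3 libraries and open circles for the 2 libraries with over 20% mitochondrial counts. BCL2A1 lies between 16.2 and 21.5 TPM at 48 and 72 h against 3.31 to 3.92 in DMSO, BCL2 lies lower in UM171 than in DMSO at each time in the unedited cells, and the open circle of BCL2 in sgEPCR DMSO stands at 95.8 TPM.

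UM171 was compared with DMSO at each time in the unedited cells, with the limit on labelled time given above. Expected counts were tested with edgeR's quasi-likelihood test, and a gene passed at a Benjamini-Hochberg adjusted p under 0.05 over all 16575 genes tested. At 6 h 8 of 9 members passed, all lower, with 62.1% of all genes passing, 31.8% higher and 30.3% lower. That count depended on the scaling, since with limma on log2(TPM + 1) or log2(TPM + 0.1) BCL2 alone passed, lower, with 11.4% and 10.9% of genes lower. With counts scaled by their total 4 passed, BCL2, BCL2A1 and BCL2L11 lower (background 14.7%) and BAK1 higher (0.28, adjusted p = 0.0214), a scaling that moved the median of all genes to 0.20. At 24 h 5 members passed, 1 higher (background 34.9%) and 4 lower (34.8%), with 69.7% of genes in either direction. At 48 h 7 passed, 3 higher (background 37.1%) and 4 lower (35%), with 72.1% in either direction, and at 72 h all 9 passed, 3 higher (38.8%) and 6 lower (36.8%), with 75.6% in either direction. The stricter limits asked for an adjusted p under 0.0001 and more than 2-fold. None of the members passed them at 6 h, where 7.03% of genes did, 6.78% higher and 0.247% lower. BCL2L11 alone passed at 24 h, lower, with 13.7% of genes passing, 9.03% higher and 4.7% lower. At 48 h 1 member passed higher (background 11.7%) and 3 lower (4.67%), with 16.4% in either direction, and at 72 h 1 higher (15%) and 1 lower (5.8%), with 20.8% in either direction. In bulk RNA, fewer cells with a transcript and less of it per cell cannot be told apart.

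BCL2, the founding pro-survival gene of the family and the target of venetoclax, fell at every time. Its level was 48.8, 49.8 and 52.1 TPM in the DMSO libraries, 39.2, 40.3 and 40.8 at 6 h and 31.4, 30.9 and 30.0 at 24 h. It was 23.9, 24.3 and 26.9 TPM at 48 h and 31.0, 31.3 and 32.3 TPM at 72 h. No library of a UM171 group overlapped the DMSO libraries, and the lowest group was 48 h. In order of time the log2 change was -0.47 ± 0.03 (SE; edgeR adjusted p = 4.65e-09), -0.72 ± 0.03 (6.98e-12), -1.09 ± 0.03 (3.11e-14) and -0.70 ± 0.03 (4.41e-12). BCL2 thereby went from 18.1% of the pro-survival TPM in DMSO to 9.10% ± 2.13 at 48 h.

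BCL2A1, which encodes the pro-survival protein BFL-1 and is a known NF-kB target gene, moved the other way and late. It stood at 3.92, 3.55 and 3.31 TPM in DMSO, 2.07, 3.64 and 2.28 at 6 h and 4.05, 4.34 and 5.09 at 24 h. At 48 h it reached 20.4, 21.5 and 16.2 TPM and at 72 h 19.1, 20.01 and 21.4 TPM. All 6 libraries of the 2 later times lay above all 9 earlier ones. The counts behind the lowest group were few, 30 to 56 per library at 6 h. Its log2 changes over the 4 times were -0.65 ± 0.18 (edgeR adjusted p = 0.00545), 0.27 ± 0.16 (0.144), 2.43 ± 0.14 (9.55e-11) and 2.41 ± 0.14 (7.07e-11). The fall at 6 h did not pass with limma on log2(TPM + 1) or log2(TPM + 0.1) (adjusted p = 0.0639 and 0.0571). BCL2A1 made up 6.87% ± 0.0727 of the pro-survival TPM at 48 h and 8.18% ± 0.289 at 72 h.

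MCL1, a short-lived pro-survival protein, and BCL2L1, which encodes BCL-XL, moved by less. MCL1 was 170, 188 and 183 TPM in DMSO, and the 6 h libraries had 151, 168 and 167 TPM. After 24 h it was 200, 194 and 201 TPM, after 48 h 207, 226 and 157, and after 72 h 146, 167 and 167. It fell at 6 h (log2 change -0.31 ± 0.06, edgeR adjusted p = 0.000129) and at 72 h (-0.22 ± 0.06, 0.00165), was 0.12 ± 0.06 (0.0654) at 24 h and rose at 48 h (0.18 ± 0.06, 0.00772). At 24 h it passed with no filter (0.13, 0.0279), with at least 10 counts in every library (0.15, 0.0250), or without UM171 48 h replicate 2 (0.0327), UM171 48 h replicate 3 (0.0139) or UM171 6 h replicate 1 (0.0480). None of the MCL1 changes passed with limma on log2(TPM + 0.1) (adjusted p = 0.290 at 6 h, 0.435 at 48 h and 0.193 at 72 h), nor with total scaling those at 6 h (-0.12, 0.160) and 72 h (-0.14, 0.0856). The 48 h libraries overlapped those of DMSO, and without UM171 48 h replicate 2 the rise was 0.12 with an adjusted p of 0.0535. BCL2L1 lay between 39.7 and 44.3 TPM in DMSO and between 33.4 and 37.3 TPM at 72 h, with log2 changes of -0.28 ± 0.05 (0.000262) at 24 h, 0.01 ± 0.05 (0.828) at 48 h and -0.29 ± 0.05 (0.000125) at 72 h. At 6 h its change was -0.15 ± 0.05 (0.0281) and did not pass without DMSO replicate 2 (-0.14, 0.0727), DMSO replicate 3 (-0.14, 0.0637) or UM171 6 h replicate 1 (-0.14, 0.0611). With counts scaled by their total it was 0.04. The fall of BCL2L1 at 24 h did not pass with limma on log2(TPM + 1) (-0.20, 0.126).

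The effectors BAX and BAK1 changed by under 0.35 on the log2 scale at every time. BAX was 184, 203 and 211 TPM in DMSO and fell at 6 h (-0.20 ± 0.05, edgeR adjusted p = 0.00131), 48 h (-0.33 ± 0.05, 5.81e-06) and 72 h (-0.21 ± 0.05, 0.000557), with 0.07 ± 0.05 (0.191) at 24 h. Its 48 h libraries were 179, 173 and 136 TPM and its 72 h libraries 174, 196 and 197 TPM, and the latter overlapped DMSO in TPM although not in TMM-scaled CPM (counts relative to the library total). The BAX fall at 6 h was lost with limma on log2(TPM + 1) (-0.01, 0.941), total scaling (-0.02, 0.824) and upper quartile scaling (-0.10, 0.0664), and that at 72 h with limma (-0.08, 0.499). BAK1 was 15.5, 15.4 and 16.2 TPM in DMSO, rose at 24 h to 18.2, 20.5 and 19.8 TPM (0.27 ± 0.08, 0.00806) and fell at 72 h to 12.6, 13.5 and 13.6 TPM (-0.33 ± 0.08, 0.00217). Neither BAK1 change passed with limma on log2(TPM + 1) (0.0725 and 0.135). With all 21 libraries in one fit, whose spread includes the sgEPCR cells, no change of BAX or BAK1 passed, and those named above had adjusted p from 0.106 (BAX at 48 h) to 0.406 (BAK1 at 24 h). BAX held 91.2% to 93.5% of the summed effector TPM on average in each of these 5 groups.

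Of the BH3-only genes, BCL2L11, which encodes the broad binder BIM, fell at every time. It was 15.1, 18.8 and 17.5 TPM in DMSO and 17.1, 15.5 and 16.9 TPM after 6 h. The 24 h libraries had 8.71, 7.15 and 6.94 TPM, those of 48 h 7.74, 7.81 and 8.52, and those of 72 h 8.87, 8.03 and 8.96. The DMSO and 6 h libraries overlapped in TPM and those of the 3 later times lay below both. From the earliest time to the latest the log2 change in TMM-scaled counts was -0.44 ± 0.05 (edgeR adjusted p = 1.45e-06), -1.29 ± 0.05 (1.43e-12), -1.24 ± 0.05 (1.71e-12) and -1.14 ± 0.05 (2.93e-12). At 6 h the call was lost with limma on log2(TPM + 1) (-0.05, 0.698). Its exons overlap those of MIR4435-2HG on the opposite strand. BCL2L1 likewise overlaps ABALON and BAK1 overlaps GGNBP1 on the opposite strand, while MCL1 and BBC3 overlap a gene on each strand. The counting strand is not given in the sources used here.

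BBC3, which encodes PUMA and is a known p53 target gene, fell and then rose above DMSO. It was 11.6, 11.5 and 11.8 TPM in DMSO and 8.82, 10.7 and 11.02 TPM after 6 h. The 24 h libraries lay between 6.02 and 6.5 TPM, those of 48 h had 6.39, 5.95 and 3.66, and those of 72 h 14.8, 18.8 and 19.2. None of the 4 UM171 groups overlapped DMSO, and 72 h lay above all the others. The log2 change was -0.38 ± 0.11 (edgeR adjusted p = 0.00681), -0.995 ± 0.11 (5.38e-07), -1.11 ± 0.12 (1.69e-07) and 0.54 ± 0.10 (0.000162) in order of time. Its spread at 72 h was 14.8 to 19.2 TPM, and with all 21 libraries in one fit, whose spread includes the sgEPCR cells, the change at 72 h was 0.53 with an adjusted p of 0.140 and that at 6 h -0.37 with 0.357. The 6 h change of BBC3 also missed with limma on log2(TPM + 1) (-0.18, 0.355) and total scaling (-0.19, 0.198).

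PMAIP1, which encodes NOXA, a BH3-only protein that binds MCL1 and BFL-1, was the most abundant BH3-only member in every group. It was 31.8, 44.7 and 41.2 TPM in DMSO and 33.2, 35.3 and 35.2 TPM after 6 h. The 24 h libraries had 42.3, 39.5 and 42.7 TPM, those of 48 h 48.0, 57.2 and 39.3, and those of 72 h 56.3, 60.2 and 66.9. In TPM only the 72 h libraries stood clear of all those in DMSO. Over the 4 times the log2 change was -0.33 ± 0.09 (edgeR adjusted p = 0.00440), 0.11 ± 0.09 (0.262), 0.39 ± 0.09 (0.000725) and 0.64 ± 0.09 (3.38e-06). The fall at 6 h was lost with all 21 libraries in one fit (-0.33, 0.0608), limma on log2(TPM + 1) (-0.16, 0.343) and total scaling (-0.14, 0.238), and the rise at 48 h with limma (0.29, 0.0785). PMAIP1 made up 57.5% ± 2.70 of the BH3-only TPM in DMSO and 78.1% ± 2.25 at 48 h, while BCL2L11 went from 25.2% ± 0.491 in DMSO to 9.91% ± 1.03 at 72 h. BIK, a BH3-only protein of the endoplasmic reticulum, was listed at 0 in 19 libraries, with 1 count in UM171 24 h replicate 3 and 1 in sgEPCR UM171 24 h replicate 3, under the floor of 3 counts.

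**Figure D2:**
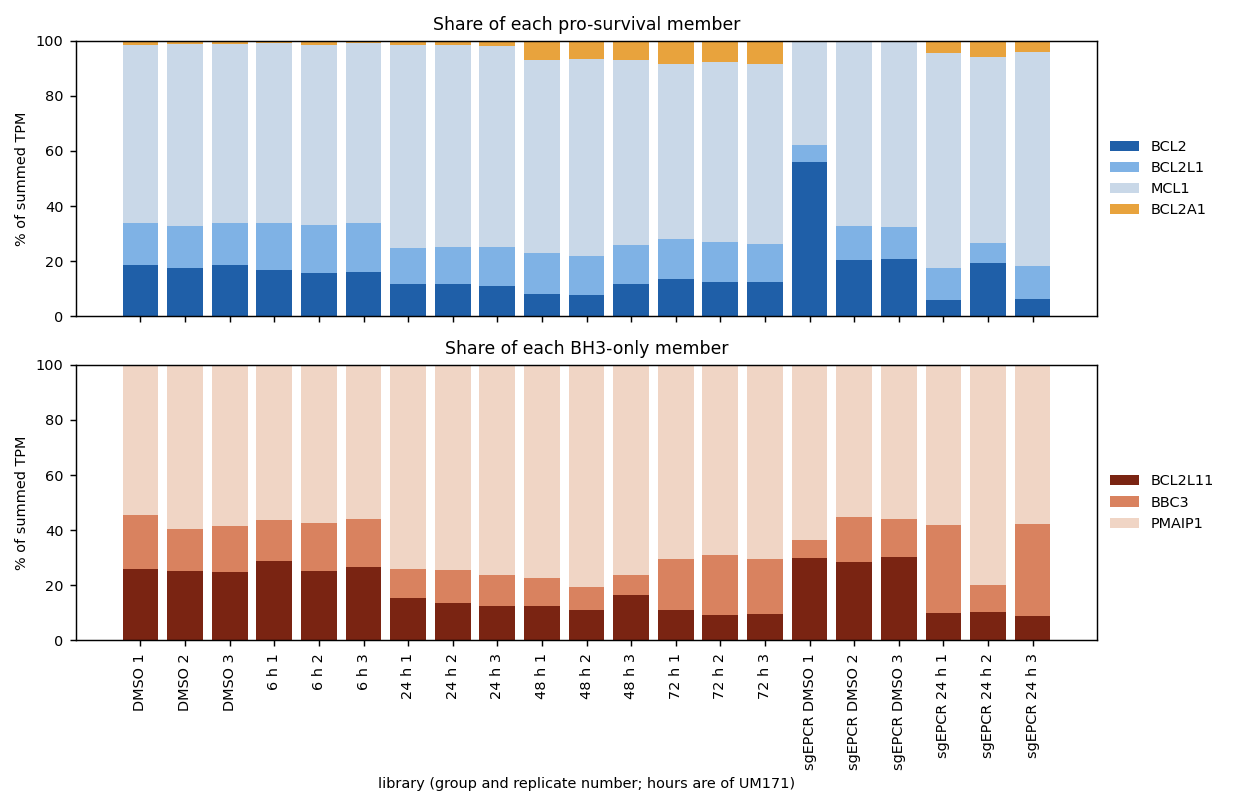
Share of each member in the summed TPM of the pro-survival genes (top) and of the BH3-only genes (bottom), in percent, with 1 stacked bar for each of the 21 libraries. BCL2A1 widens to 6.87% ± 0.0727 at 48 h and 8.18% ± 0.289 at 72 h, PMAIP1 takes 57.5% ± 2.70 of the BH3-only TPM in DMSO and 78.1% ± 2.25 at 48 h, and BCL2 takes 56.0% in sgEPCR DMSO replicate 1.

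The same 24 h exposure was compared between sgEPCR and unedited cells, which addresses how the response to UM171 differs between them, within the limit on DMSO labels given above. The sgEPCR comparisons and the interaction come from a fit of 12 libraries, and the UM171 effects quoted for unedited cells from that of the 15 unedited libraries. The common coefficient of variation between libraries was 0.187 and 0.056, respectively, so SE and adjusted p of the 2 fits are not on one footing. In sgEPCR cells 6 of 9 members passed the test for UM171 against DMSO, 4 higher (background 27% of 15901 genes) and 2 lower (25.1%), with 52.1% in either direction. Between the genotypes 3 members passed in DMSO, all lower, with backgrounds of 17.4% higher, 16.3% lower and 33.7% in either direction. In UM171 4 passed, 3 higher (20.8%) and 1 lower (22.2%), with 43% in either direction. For the interaction, the UM171 effect in sgEPCR cells minus that in unedited cells, 7 passed, 6 higher (21.9%) and 1 lower (23.1%), with 45% in either direction. By the stricter limits 1 member was higher (background 6.99%) and 1 lower (3.33%) for UM171 in sgEPCR cells, with 10.3% in either direction. Between the genotypes in DMSO there were 0 (1.43% higher, 1.41% lower, 2.84% in either direction), and in UM171 1 was higher (2.67% higher, 1.79% lower, 4.46% in either direction). The interaction had 1 higher, with backgrounds of 3.6% higher, 4.17% lower and 7.77% in either direction. Leaving out sgEPCR UM171 replicate 2 alone gave 6 members past the test between the genotypes in DMSO (background 43.7%), and by the stricter limits 1 there (4.19%) and 2 for the interaction (10.6%). By the stricter limits at 24 h in unedited cells 2 members passed without DMSO replicate 2 (12.3%) or without UM171 24 h replicate 2 (12.2%). Without both libraries of high mitochondrial share the members past the test numbered 9, 7, 6 and 8, and the backgrounds 71%, 60.3%, 68.3% and 69.2%.

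**Figure D3:**
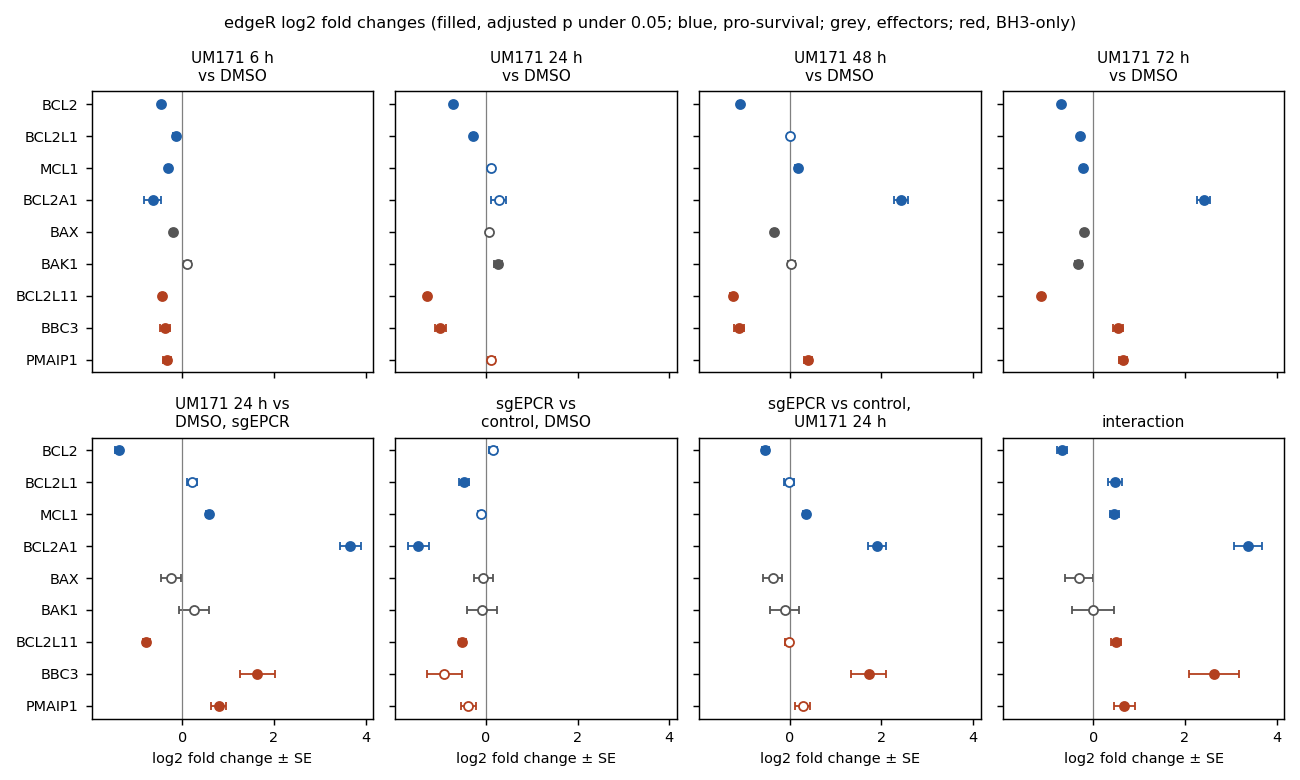
edgeR log2 fold changes with SE (horizontal axes) of 9 members in the 8 comparisons, filled where the adjusted p is under 0.05. BCL2A1 stands at 2.43 and 2.41 at 48 and 72 h and at 3.67 in sgEPCR cells, BBC3 at -0.995 at 24 h in unedited and 1.64 in sgEPCR cells, and the interaction of BCL2 at -0.68.

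BCL2A1 had the largest interaction of the 9 genes. In sgEPCR cells it was 0.650, 1.14 and 1.11 TPM in DMSO, from 13, 19 and 27 counts, and 14.9, 11.9 and 14.6 TPM in UM171. The groups did not overlap each other, and the DMSO libraries also lay below every unedited library. UM171 raised it by 3.67 ± 0.23 on the log2 scale (edgeR adjusted p = 3.55e-07) against 0.27 ± 0.16 (0.144) in unedited cells, with an interaction of 3.37 ± 0.30 (9.85e-06). Between the genotypes it was -1.48 ± 0.23 (0.000578) in DMSO and 1.90 ± 0.20 (3.06e-05) in UM171. Without the 2 libraries the interaction was 3.23 ± 0.24 (2.78e-08), the UM171 effect 3.50 ± 0.19 (6.46e-10), and the genotype differences -1.54 ± 0.20 (1.35e-05) in DMSO and 1.69 ± 0.14 (6.87e-08) in UM171. BCL2A1 was the member past the stricter limits between the genotypes in UM171, and it missed them, with adjusted p from 0.000104 to 0.000391, without DMSO replicate 2, sgEPCR UM171 24 h replicate 1 or any one of the 3 UM171 24 h libraries of unedited cells.

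BBC3 moved in opposite directions in the genotypes. It was 1.31, 7.53 and 6.40 TPM in the sgEPCR DMSO libraries and 25.4, 4.43 and 27.4 TPM in the sgEPCR UM171 libraries, and the TPM ranges overlapped through the 2 libraries of high mitochondrial share. In TMM-scaled CPM the groups did not overlap, and UM171 raised BBC3 by 1.64 ± 0.38 (edgeR adjusted p = 0.00425), where the change in unedited cells was -0.995. The interaction was 2.64 ± 0.54 (0.00237), and 2.70 ± 0.12 (1.14e-10) without the 2 libraries. In UM171 sgEPCR cells held more BBC3 than unedited cells, by 1.72 ± 0.38 (0.00415), and in DMSO the difference was -0.91 ± 0.38 (0.0895), or -0.64 ± 0.09 (1.76e-05) without the 2 libraries. The UM171 effect was then 1.71 ± 0.09 (3.88e-10) and the difference in UM171 2.06 ± 0.08 (3.96e-11). With limma on log2(TPM + 1) the calls of BBC3 were lost, at 1.60 (adjusted p = 0.101) for UM171 in sgEPCR cells, 2.40 (0.110) for the interaction and 1.13 (0.254) between the genotypes in UM171.

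BCL2 fell further in sgEPCR than in unedited cells. Its level was 95.8, 50.1 and 49.2 TPM in sgEPCR DMSO and 20.1, 39.4 and 21.6 TPM in sgEPCR UM171, where the high values of each group belong to the 2 libraries of high mitochondrial share. In TMM-scaled CPM the ranges were 228 to 237 and 82.1 to 97.3, with no overlap. The log2 change was -1.39 ± 0.08 (edgeR adjusted p = 2.36e-07) and the interaction -0.68 ± 0.11 (0.000628), against -1.46 ± 0.04 (2.00e-12) and -0.74 ± 0.05 (2.29e-08) without the 2 libraries. Between the genotypes BCL2 was 0.15 ± 0.08 (0.175) in DMSO and -0.53 ± 0.08 (0.000375) in UM171, or 0.13 ± 0.04 (0.00959) and -0.62 ± 0.04 (7.20e-09) without them. The interaction did not pass with total scaling (-0.55, 0.0638) or with limma on log2(TPM + 1) (-0.54, 0.472), which also lost the difference in UM171 (-0.24, 0.608). The DMSO libraries compared carry different time labels.

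MCL1 and PMAIP1 rose in sgEPCR cells, whereas their changes of 0.12 and 0.11 in unedited cells did not pass. MCL1 was 63.9, 163 and 160 TPM in sgEPCR DMSO and 269, 138 and 267 TPM in sgEPCR UM171, a log2 change of 0.58 ± 0.07 (edgeR adjusted p = 4.46e-05) with an interaction of 0.46 ± 0.10 (0.00320), or 0.42 ± 0.05 (1.74e-06) without the 2 libraries, where its UM171 effect was 0.54 ± 0.04 (7.59e-09). In UM171 sgEPCR cells held more MCL1 than unedited cells (0.35 ± 0.07, 0.00212), or 0.37 ± 0.03 (1.88e-07) without the 2 libraries. With limma on log2(TPM + 1) the MCL1 effect in sgEPCR cells (0.85, 0.134), its interaction (0.71, 0.429) and the difference in UM171 (0.11, 0.855) did not pass, and with total scaling neither did the interaction (0.59, 0.156) nor the difference in UM171 (0.24, 0.412). PMAIP1 was 13, 25.8 and 25.7 TPM in sgEPCR DMSO and 45.9, 35.3 and 47.0 TPM in sgEPCR UM171, a log2 change of 0.79 ± 0.16 (0.00176) with an interaction of 0.67 ± 0.23 (0.0323). The PMAIP1 interaction passed in 5 of 12 fits that each left out a library, with adjusted p from 0.0199 to 0.0824, and was 0.52 ± 0.12 (0.00151) without the 2 libraries of high mitochondrial share. Leaving those out, its UM171 effect was 0.63 ± 0.09 (3.18e-05) and its difference in DMSO -0.46 ± 0.09 (0.000472), against -0.39 ± 0.16 (0.0884) with all libraries. Between the genotypes in UM171 PMAIP1 did not pass, at 0.28 with all libraries. Over the 12 fits that each left out a library this difference was 0.06 to 0.39 (edgeR adjusted p from 0.0920 to 0.679). The PMAIP1 interaction also holds the difference in DMSO, where the libraries carry different time labels. The PMAIP1 interaction did not pass with limma on log2(TPM + 1) (0.92, 0.145), nor without DMSO replicate 2 (0.58) or 3 (0.64), without UM171 24 h replicate 1 (0.68), 2 (0.63) or 3 (0.67), or without sgEPCR DMSO replicate 2 (0.61) or 3 (0.64).

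BCL2L11 fell in sgEPCR cells by 0.79 ± 0.08 on the log2 scale (edgeR adjusted p = 1.10e-05), less than the 1.29 in unedited cells, with an interaction of 0.50 ± 0.11 (0.00369), or 0.45 ± 0.08 (0.000288) without the 2 libraries. It was 6.14, 13.3 and 13.9 TPM in sgEPCR DMSO and 7.82, 4.53 and 7.27 TPM in sgEPCR UM171. In DMSO it was lower in sgEPCR than in unedited cells (-0.52 ± 0.08, 0.000433), and in UM171 the difference was -0.03 ± 0.08 (0.805). Without the 2 libraries the UM171 effect was -0.84 ± 0.07 (4.00e-08) and the difference in DMSO -0.51 ± 0.06 (2.81e-06). With limma on log2(TPM + 1) the BCL2L11 effect (-0.64, 0.165), its interaction (0.44, 0.560) and its difference in DMSO (-0.65, 0.183) did not pass, nor did the interaction with total scaling (0.63, 0.0909). BCL2L1 was also lower in sgEPCR cells in DMSO (-0.48 ± 0.11, 0.00551), at 10.5, 29.8 and 28.3 TPM. Its interaction was 0.48 ± 0.15 (0.0257), which passed in 4 of 12 fits with a library left out, and 0.57 ± 0.07 (9.31e-06) without the 2 libraries. Leaving these out, its UM171 effect was 0.28 ± 0.06 (0.000493), against 0.21 ± 0.11 (0.126) with all libraries, and its difference in DMSO -0.45 ± 0.05 (5.13e-06). With limma on log2(TPM + 1) or total scaling neither the BCL2L1 interaction (0.557 and 0.197) nor its difference in DMSO (0.172 and 0.0556) passed, and with no filter the interaction was 0.44 (0.0813). The BCL2L1 interaction did not pass without DMSO replicate 1 (0.47), 2 (0.46) or 3 (0.47), without UM171 24 h replicate 1 (0.43) or 2 (0.45), without sgEPCR DMSO replicate 3 (0.47), or without sgEPCR UM171 24 h replicate 1 (0.42) or 3 (0.40).

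For the effectors no sgEPCR comparison passed with all libraries, with interactions of -0.32 ± 0.30 for BAX (edgeR adjusted p = 0.423) and -0.02 ± 0.46 for BAK1 (0.983). BAX was 53.6, 193 and 183 TPM in sgEPCR DMSO and 204, 44.8 and 208 TPM in sgEPCR UM171. BAK1 was 3.33, 18.2 and 15.4 TPM and 22.7, 5.48 and 23.3 TPM, respectively. The lowest value in each group belongs to a library of high mitochondrial share. Without these 2 libraries the BAX interaction was -0.19 ± 0.06 (0.0115), and BAK1 was higher in sgEPCR cells in DMSO (0.19 ± 0.07, 0.0291) and in UM171 (0.17 ± 0.07, 0.0292). The BAK1 rise under UM171 in sgEPCR cells then also passed (0.25 ± 0.07, 0.00712), as did BAX under UM171 (-0.13 ± 0.05, 0.0268) and between the genotypes in UM171 (-0.12 ± 0.04, 0.0180). In TPM the BAX mean of these sgEPCR libraries was higher in UM171, 206 against 188.

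The members did not shift alike in these 2 libraries. Against the other 2 libraries of its group, sgEPCR DMSO replicate 1 had differences in log2 CPM of -1.22 for BBC3, -1.201 for BAK1, 0.18 for PMAIP1 and 0.05 for BCL2. In sgEPCR UM171 replicate 2 the differences were -1.56 for BBC3, -1.18 for BAK1 and -0.998 for BAX, with 0.53 for PMAIP1 and 0.55 for BCL2A1. The canonical transcripts held 69.7% GC for BBC3 and 36.7% for PMAIP1. MCL1, at 45.1%, stood at -0.18 and -0.10, BCL2L1, at 56.6%, at -0.14 and -0.44, and BCL2L11, at 45.5%, at -0.07 and 0.04. Across genes, Pearson's r between transcript GC and the difference was -0.839 in the first library (8 genes) and -0.973 in the second (9 genes), points that share a library and are not independent. The part of base composition in the sgEPCR results was not tested.

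**Figure D4:**
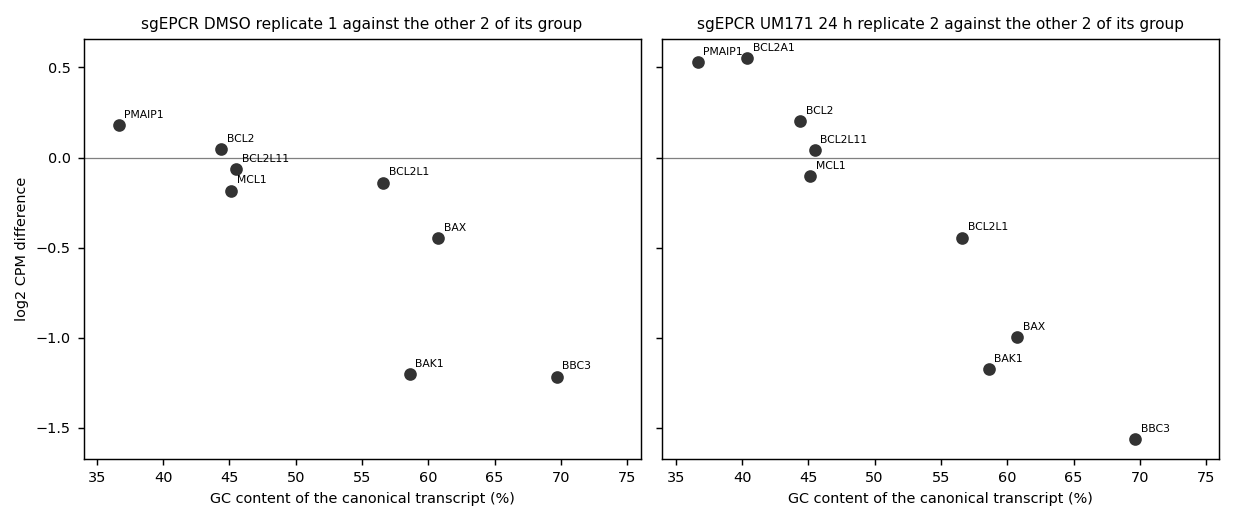
Difference in log2 CPM (vertical axis) between each library of high mitochondrial share and the mean of the other 2 libraries of its group, against the GC content in percent of each member's canonical transcript. BBC3, at 69.7% GC, stands at -1.22 and -1.56 and PMAIP1, at 36.7%, at 0.18 and 0.53.

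The abundance-weighted transcript length, which RSEM computes from the isoforms it assigns to a gene, set BCL2 apart in the same libraries. The first sgEPCR DMSO library had 1624 bases and the second sgEPCR UM171 library 2152, where the other 19 libraries had 4832 to 6492 bases (median 6319). The lowest of these 19 was UM171 48 h replicate 3, which also had the highest mitochondrial share among them, 13.5%. GENCODE version 44 lists 4 BCL2 transcripts, of 6881, 7461, 5011 and 572 bases, although the files may rest on another annotation. TPM depends on length and on the library total. BCL2 in sgEPCR DMSO replicate 1 was 0.95 higher on the log2 scale than in the other 2 in TPM and 0.05 higher in CPM. Members of nearly unchanged length stood lower in TPM than in CPM in that library, MCL1 at -1.34 and -0.18 and PMAIP1 at -0.99 and 0.18. In sgEPCR UM171 replicate 2 MCL1 stood at -0.96 and -0.10 and PMAIP1 at -0.40 and 0.53. Among the 19 libraries BCL2L11 also varied in length, from 2841 to 4248 bases.

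**Figure D5:**
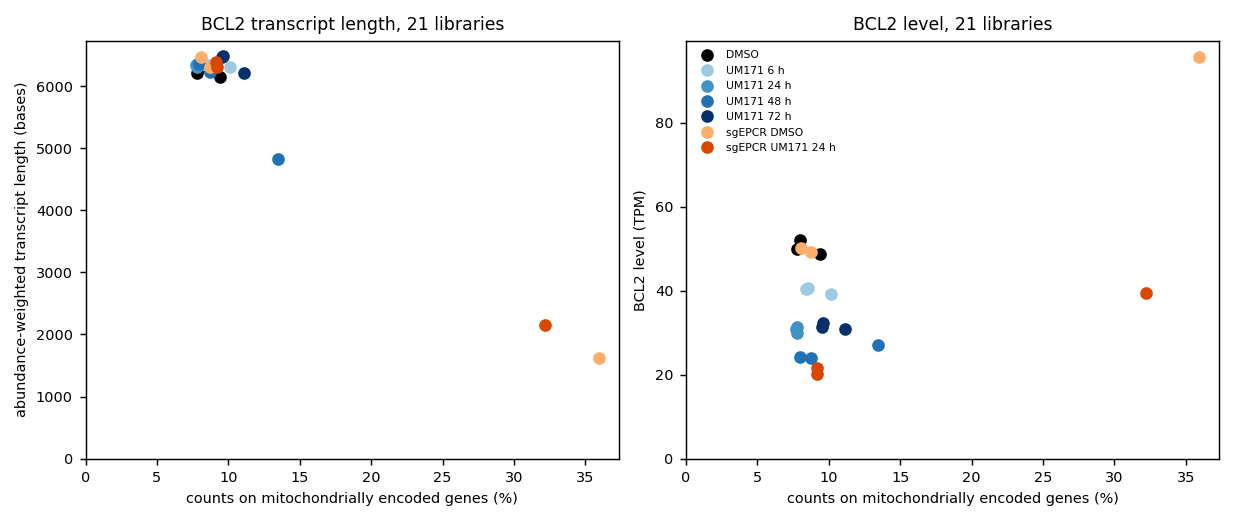
BCL2 transcript length in bases (left) and level in TPM (right), against the percent of counts on mitochondrially encoded genes, with 1 point for each of the 21 libraries colored by group. The 2 libraries at 35.9% and 32.2% have lengths of 1624 and 2152 bases, the library at 13.5% has 4832 bases, and the remaining libraries lie above it.

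Smaller length differences without overlap with DMSO were seen for several members, and how often this holds over all genes was not counted. PMAIP1 was 1826 to 1849 bases in DMSO, 1854 to 1871 at 6 h and 1924 to 1935 over the 24, 48 and 72 h libraries. In sgEPCR cells its lengths overlapped, at 1888 to 1924 bases in DMSO and 1878 to 1926 in UM171. Without the 2 libraries of high mitochondrial share they were 1888 to 1907 in DMSO and 1878 to 1882 in UM171. MCL1 was 3706 to 3743 bases in DMSO, 3750 to 3785 at 6 h and 3780 to 3785 at 24 h. At 48 h it was 3822 to 3828 and at 72 h 3775 to 3833. BCL2L11 was 3487 to 4248 bases in DMSO and 3174 to 3360 at 6 h, and BCL2 6148 to 6292 and 6312 to 6340, respectively. BCL2 was also clear of DMSO at 24 h (6306 to 6360) but not at 48 or 72 h, and BCL2L11 overlapped DMSO from 24 h on. BAX was 869 to 881.5 bases in DMSO and 843 to 866 at 24 h, and BAK1 2155 to 2158 and 2143 to 2151, respectively. BAX was also clear of DMSO at 72 h (828 to 854) but not at 6 or 48 h, and BAK1 overlapped DMSO at 6, 48 and 72 h. With 3 libraries against 3, a two-sided exact permutation test cannot go below 0.1.

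Other genes of the pathway were counted from lists by function, also chosen with earlier results of these data known. Of 13 further BCL2 family genes 9 were tested, and at 72 h 4 passed higher and 2 lower (median log2 change 0.14, against 0.02 over all genes, of which 38.8% were higher and 36.8% lower). The largest rise past the stricter limits was that of BNIP3, a hypoxia-inducible mitophagy receptor with a BH3-like motif (2.22 ± 0.13, edgeR adjusted p = 6.93e-11). Of 15 apoptosome and caspase genes 5 were higher and 9 lower at 72 h (median -0.34), with CASP10, an initiator caspase, at 1.03 ± 0.08 (4.58e-09) and ENDOG, a mitochondrial nuclease, at -1.17 ± 0.07 (1.40e-10). Of 8 inhibitors of apoptosis 3 were higher and 5 lower (median -0.31), and BIRC7 rose by 3.96 ± 0.22 (2.90e-11). Of the 8 mitochondrial partners 1 was higher, HK1, an outer membrane hexokinase, at 1.03 ± 0.05 (1.76e-12), and 4 lower (median -0.15).

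At 72 h the ATF4 and CHOP stress genes had a higher median than the p53, the FOXO and JNK, and the MCL1 turnover lists. Over all genes 38.8% were higher and 36.8% lower at this time. Of the 10 ATF4 and CHOP genes 9 were higher and 1 lower (median 1.25), and 6 were past the stricter limits and higher (background 15%). They were led by CHAC1, a glutathione-degrading enzyme, at 3.69 ± 0.09 (edgeR adjusted p = 1.56e-15). At 6 h 0 of the 10 were higher and 7 lower (median -0.34, with 30.3% of all genes lower). The mitochondrial partners then had 0 higher and 7 lower (median -0.37) and the caspase list 5 and 10 (-0.30). The p53 list had 5 and 8 (-0.05), the inhibitors of apoptosis 2 and 3 (-0.08) and the other family genes 1 and 4 (-0.17). The MCL1 enzymes had 2 and 4 (-0.18) and the FOXO and JNK list 1 and 3 (-0.03). With total scaling 14.7% of all genes were lower at 6 h, and the lists were not counted under it. At 72 h, of 20 genes for p53 and its targets 10 were higher and 7 lower (median 0.11), with SESN2 at 1.67 ± 0.06 (1.67e-13) and AEN, an apoptosis-enhancing nuclease, at -1.16 ± 0.07 (6.30e-11). Of 9 FOXO and JNK regulators 7 were higher and 2 lower (median 0.33), and DYNLL1, a dynein light chain that binds BIM, fell by 1.18 ± 0.04 (1.95e-13). Of 7 tested MCL1 turnover enzymes 4 were higher and 1 lower (median 0.14), none past the stricter limits.

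In the interaction, the inhibitors of apoptosis had 6 of 8 higher and 1 lower (median 1.09, against -0.02 over all genes, of which 21.9% were higher and 23.1% lower), with BIRC3, an NF-kB target gene, at 3.92 ± 0.46 (edgeR adjusted p = 6.29e-05). The mitochondrial partners had 8 of 8 lower (median -0.89), with HK2 at -1.12 ± 0.13 (5.94e-05). The p53 list had 11 of 20 higher and 1 lower (median 0.61), with BTG2, an antiproliferative gene, at 2.17 ± 0.14 (1.05e-06). The ATF4 and CHOP list had 5 higher and 3 lower (median 0.35), with ATF3 at 2.76 ± 0.15 (4.25e-07) and ASNS, asparagine synthetase, at -1.51 ± 0.14 (1.22e-05). The caspase list had 2 higher and 4 lower (median -0.22), with AIFM1 at -1.18 ± 0.12 (2.85e-05), the other family genes 2 higher and 1 lower (median 0.42), the MCL1 enzymes 3 and 3 (median 0.14), and the FOXO and JNK list 1 higher, JUN at 2.43 ± 0.14 (6.89e-07), and 2 lower (median -0.17). Without the 2 libraries of high mitochondrial share 33.6% of genes were higher and 35.6% lower. The lists then had 6 higher and 1 lower (inhibitors of apoptosis, median 1.04), 0 and 8 (mitochondrial partners, -0.93), 12 and 5 (p53 list, 0.60), 5 and 3 (ATF4 and CHOP list, 0.36), 3 and 8 (caspases, -0.21), 3 and 3 (other family genes, 0.38), 3 and 3 (MCL1 enzymes, 0.05) and 3 and 3 (FOXO and JNK list, -0.16). The named genes stood at 3.97 (BIRC3), -1.12 (HK2), 2.25 (BTG2), 2.80 (ATF3), -1.51 (ASNS), -1.19 (AIFM1) and 2.49 (JUN), each past the test.

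The genes most like each member that passed the stricter limits were taken as those with the smallest root mean square difference over the 6 group differences from DMSO in mean log2 CPM, among 10888 genes. They were SGF29 (0.140) and FAM156A (0.141) for BCL2L11, with a median over all genes of 1.07, and NCBP2AS2 (0.168) and NID1 (0.176) for BCL2, with a median of 0.837. For BBC3 they were KLF7 (0.289) and H2AC6 (0.289), with a median of 0.965, and for BCL2A1 NRP1 (0.553) and TIMP1 (0.553), with a median of 1.83. Likeness here is of 6 values, 2 of which rest on groups that hold a library of high mitochondrial share.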

How the data were processed

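RNA of 21 OCI-AML5 libraries was read as 1 table each. Per the labels the library kit was stranded and poly(A)-selected, and the submitters' processing notes name CASAVA 1.8.2, Trimmomatic 0.35, STAR 2.5.1b, RSEM 1.2.28 and GRCh38. The deposited expected counts are RSEM's estimates of reads per gene, not normalized by the authors. The deposited TPM values were scaled by the authors' RSEM run to transcript length and library total. Of 58219 entries, 45 pseudoautosomal Y entries were summed with their X copies.

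Expected counts were rounded, filtered (filterByExpr), scaled by TMM and tested with edgeR 4.0.16 (quasi-likelihood, R 4.3.3) with Benjamini-Hochberg adjustment over all genes tested, in one fit of 15 unedited libraries and one of 12 libraries at 24 h and in DMSO. SE is the log2 change divided by the root of F. The fits were also run on simulated counts with the same spread for all genes and no library of high mitochondrial share. These settings differ from the data, and no result given here rests on that run. Alternatives used DESeq2 1.42.0, limma 3.58.1 on log2(TPM + 1) or log2(TPM + 0.1) at a mean TPM of 0.5 or more, other scalings and filters, and libraries left out. Figures used Python 3.11.15 and matplotlib 3.10.9. Members and gene lists were chosen with earlier results of these data known. The list counts without the 2 libraries of high mitochondrial share and the marker sum without LYZ were chosen after seeing the data. Named list genes are those with the largest rise and fall past the stricter limits at 72 h and in the interaction. Intervals of counting error were not computed.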

Additional observations from a re-analysis of the deposited data

Results flagged for a closer look

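For 7 members the effect of UM171 after 24 h differed between sgEPCR and unedited cells by the interaction test of edgeR, with an adjusted p under 0.05. This difference also carries that of the DMSO labels, 72 h in unedited and 24 h in sgEPCR cells. The differences on the log2 scale were 3.37 for BCL2A1, 2.64 for BBC3, 0.67 for PMAIP1, 0.50 for BCL2L11, 0.48 for BCL2L1, 0.46 for MCL1 and -0.68 for BCL2. Of all 15901 genes 45% passed this test. In 12 fits that each left out 1 library, the interaction of BCL2L1 passed in 4 and that of PMAIP1 in 5, and each passed without the 2 libraries over 20% mitochondrial.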

How the results depend on the processing

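Of 1782 values of single members under an alternative, 1611 kept their direction and side of the threshold, 99 lost the call, 27 gained one and 45 changed sign, none with an adjusted p under 0.05 in both fits. Of 396 counts of members, 48 moved by over 1.5-fold. The causes were not tested.

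With limma on log2(TPM + 1) and log2(TPM + 0.1), in that order, signs turned for BAK1 at 48 h (-0.012 and -0.015), BCL2L1 at 48 h (-0.074 and -0.075) and 6 h (0.022 and 0.022), BAX for UM171 in sgEPCR cells (0.0023 and 0.0011) and the BAK1 interaction (0.19 and 0.23). The BAK1 interaction was also positive with DESeq2 (0.013), DESeq2 size factors in edgeR (0.010), at least 10 counts in every library (0.045), total count scaling (0.11) and upper quartile scaling (0.13). BCL2L1 in sgEPCR against unedited cells in UM171 was 0.016, 0.013, 0.018 and 0.066 with DESeq2, its size factors, the 10 count minimum and the upper quartile, and 0.12 without the 2 libraries over 20% mitochondrial. The upper quartile turned BCL2L11 there (0.046) and BCL2L1 at 48 h (-0.0014), and total scaling turned BCL2 in sgEPCR cells in DMSO (-0.11) and BCL2L1 at 6 h (0.038). Without the 2 libraries BAK1 was 0.19 in DMSO and 0.17 in UM171 between the genotypes, and BAX 0.066 in DMSO. Total scaling moved the median of all genes by 0.20 at 6 h and by -0.25 between the genotypes in DMSO.

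Members past an adjusted p of 0.05 (share of all genes in parentheses) numbered, in the 2 limma fits, 3 at 24 h (58.9% and 58.8%), 3 for UM171 in sgEPCR cells (17.8% and 17.4%), 1 at 6 h (45.3% and 44.4%), 1 for the interaction (10.2% and 9.05%) and 1 for each genotype comparison (7.53% to 10.3%). They numbered 4 at 6 h in the fit of all 21 libraries (39.1%) and with total scaling (59.5%), 3 for the interaction with total scaling (33.1%), and between the genotypes in DMSO 6 in the fit of all 21 libraries (42%) and 7 without the 2 libraries (60.3%). Past the stricter limits there were 2 at 24 h with the upper quartile or without mitochondrial genes (13.7% in each), 1 with limma at 72 h (14.4% and 17.3%) and for UM171 in sgEPCR cells (1.55% and 1.74%), and 0 with limma for the interaction (0.0743% and 0.0473%) and between the genotypes in UM171 (0.23% and 0.122%). DESeq2, as well as the fit without the 2 libraries, gave 2 for the interaction (16.2% and 19.1%), 1 between the genotypes in DMSO (6.7% and 6.5%) and 2 in UM171 (9.33% and 9.87%), and the fit of all 21 gave 2 for the interaction (14.5%) and 1 in DMSO (5.88%).

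Deviations of same-numbered libraries from their group means had correlations of -0.079 to 0.075 in the time course. Between sgEPCR DMSO and sgEPCR UM171 these were -0.562, -0.561 and 0.412, and the numbers were not taken as pairs. The means are of 3 libraries, 1 of them over 20% mitochondrial in each sgEPCR group. The correlations therefore cannot show whether same-numbered libraries share a clone or a culture. The highest correlation across numbers was 0.656, between the 2 libraries over 20% mitochondrial (sgEPCR DMSO replicate 1 and sgEPCR UM171 replicate 2), and no crossed pairing was fitted. With the replicate block 2 members passed the stricter limits at 24 h (13.3% of all genes), 0 for UM171 in sgEPCR cells (0.717%) and 0 for the interaction (0%), BAK1's interaction was 0.0029, and those of BCL2L1 (0.47) and PMAIP1 (0.64) did not pass. The genotype comparisons were not fitted with a block.

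Leaving out 1 library, the range was -0.039 to 0.53 for BAK1 under UM171 in sgEPCR cells, -0.047 to 0.15 for BAK1 at 48 h, -0.31 to 0.25 for its interaction, and -0.34 to 0.20 in DMSO and -0.29 to 0.17 in UM171 between the genotypes. It was -0.40 to 0.0038 for BAX under UM171 in sgEPCR cells, -0.14 to 0.076 for BAX between the genotypes in DMSO, -0.025 to 0.057 for BCL2L1 at 48 h, and in UM171 between the genotypes -0.082 to 0.11 for BCL2L1 and -0.087 to 0.033 for BCL2L11. The members past 0.05 between the genotypes in DMSO ranged from 3 to 6 (25.1% to 43.7% of all genes), and those past the stricter limits from 1 to 2 at 24 h (12.2% to 13.7%) and for the interaction (3.78% to 10.6%) and from 0 to 1 for each genotype comparison (1.08% to 5.21%). Counts of 13 to 30 in the lowest BCL2A1 libraries limit its precision.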
